A study of Mus musculus with 22 samples.

Results

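Expression of 10 genes that are known to be switched on by the kinase ERK was followed in mouse embryonic stem (ES) cells: the phosphatases Dusp4, Dusp5 and Dusp6, the inhibitors Spry1, Spry2, Spry4 and Spred1, the ETS transcription factors Etv4 and Etv5, and Phlda1. These 10 of the 18193 genes measured were chosen by name as ERK feedback and ETS target genes. For each, the probe sets annotated with its symbol alone were taken, 24 in all, and the one with the highest mean over all 22 arrays stands for the gene. All values are log2 expression after RMA (robust multi-array average), so a difference of 1 is a 2-fold difference.

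The cells were of the Rex1GFPd2 line, in which a short-lived green fluorescent protein reports on Rex1 (Zfp42). In the 2i control arm, cells transfected with siControl#1 (4 arrays) or siControl#2 (3 arrays) stayed in medium with PD0325901 (PD), which inhibits the kinase MEK directly upstream of ERK, and CHIR99021 (CHIR), which inhibits the kinase GSK3 and so stabilises beta-catenin. In the PD-only control arm, cells with siControl#1 (4 arrays) or siControl#2 (3 arrays) were moved to medium with PD alone 24 hours after transfection. In the PD-only siYAP/TAZ arm, cells received siYAP/TAZ#1 or siYAP/TAZ#2 (4 arrays each), against the coactivators YAP and TAZ (genes Yap1 and Wwtr1) of the Hippo pathway, and the same move to PD alone. All 3 arms were harvested 72 hours after transfection. The comparisons ask how the genes differ with and without CHIR, and with and without YAP and TAZ in medium that lacks CHIR. MEK was inhibited in all 3 arms, so no arm shows these genes with MEK uninhibited. Only cells of the PD-only arms are described as having been moved to new medium, so this move and the loss of CHIR cannot be told apart. The labels call the arrays of a group biological replicates without naming separate lines or days, so the p-values measure the spread between these arrays, which may be partly technical.

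Fibroblast growth factors and other ligands bind receptor tyrosine kinases, which load RAS with GTP, and RAS passes the signal through the kinases RAF, MEK and ERK. Active ERK drives ETS factors and other regulators, and among the genes it switches on are its own inhibitors. DUSP phosphatases remove the phosphates from ERK, Sprouty and Spred proteins act upstream at the level of the receptor, RAS and RAF, and Etv4 and Etv5 carry the response on to further genes. In mouse ES cells this pathway drives the exit from naive pluripotency, which is why a MEK inhibitor is part of 2i medium.

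The promoters of 5 members are shown because the arrays of these genes did not overlap between the arms in either comparison with PD-only control. Phlda1 met this rule too, but had no entry in the promoter table. Each sequence is the 250 bases upstream of a RefSeq transcription start (build GRCm38.p6), 5′ to 3′ on the strand of the gene. Capitals mark each ETS core, GGAA on either strand (TTCC when it lies on the other strand).
Dusp5, chr19:53528895-53529144, plus strand: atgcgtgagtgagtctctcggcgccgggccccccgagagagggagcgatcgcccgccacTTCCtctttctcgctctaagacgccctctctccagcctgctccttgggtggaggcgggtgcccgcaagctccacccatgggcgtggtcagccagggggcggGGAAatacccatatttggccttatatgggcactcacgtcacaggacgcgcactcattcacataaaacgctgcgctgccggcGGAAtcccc
Dusp6, chr10:99262981-99263230, plus strand: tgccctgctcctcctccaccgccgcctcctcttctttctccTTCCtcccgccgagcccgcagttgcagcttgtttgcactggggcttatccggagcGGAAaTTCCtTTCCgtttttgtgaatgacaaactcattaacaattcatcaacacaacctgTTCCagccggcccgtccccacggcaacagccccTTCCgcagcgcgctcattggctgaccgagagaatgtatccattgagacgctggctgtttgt
Spry1, chr3:37639697-37639946, plus strand: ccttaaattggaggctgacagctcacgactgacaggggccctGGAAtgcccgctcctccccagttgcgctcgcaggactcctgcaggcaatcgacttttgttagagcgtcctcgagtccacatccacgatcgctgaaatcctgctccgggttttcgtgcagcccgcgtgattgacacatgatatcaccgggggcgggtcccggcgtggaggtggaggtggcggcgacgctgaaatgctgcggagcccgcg
Spred1, chr2:117120821-117121070, plus strand: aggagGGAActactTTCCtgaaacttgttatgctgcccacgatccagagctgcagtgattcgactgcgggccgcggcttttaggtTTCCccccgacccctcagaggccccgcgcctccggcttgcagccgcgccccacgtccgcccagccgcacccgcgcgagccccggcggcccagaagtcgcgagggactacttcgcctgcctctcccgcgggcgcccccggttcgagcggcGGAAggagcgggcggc
Etv5, first start, chr16:22439571-22439820, minus strand: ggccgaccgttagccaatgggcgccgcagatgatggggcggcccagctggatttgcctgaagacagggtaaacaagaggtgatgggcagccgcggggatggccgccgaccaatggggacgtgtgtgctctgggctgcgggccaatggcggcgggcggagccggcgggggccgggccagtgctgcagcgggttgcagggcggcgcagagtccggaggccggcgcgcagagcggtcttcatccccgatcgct
Etv5, second start, chr16:22438369-22438618, minus strand: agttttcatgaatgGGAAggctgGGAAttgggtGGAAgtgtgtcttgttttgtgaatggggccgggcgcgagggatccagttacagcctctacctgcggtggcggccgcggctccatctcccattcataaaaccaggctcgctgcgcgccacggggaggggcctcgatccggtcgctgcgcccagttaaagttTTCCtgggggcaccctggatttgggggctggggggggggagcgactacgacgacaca

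The ETS core was found 6 times in the window of Dusp6, 4 times in that of Spred1, 3 times in that of Dusp5 and once in that of Spry1. Of the windows of Etv5, the one at the first start held none and the one at the second start held 4. In the Dusp6 window, the cores at 154, 149 and 144 bases upstream of the start lie side by side. These 4 letters are common: 93.4% of all 32851 windows of this length in the RefSeq table hold GGAA on either strand. The longer ETS form CCGGAA (12% of all windows), the AP-1 letters TGANTCA (6.75%) and the TCF/LEF letters CTTTGA (13.8%) were in none of these windows on either strand. The TEAD letters GGAATG (12.6% of all windows) were found once, 208 bases upstream of Spry1, where they overlap the single ETS core. A match describes letters in the window and is not a measured binding site. Windows were taken for 6 of the 10 genes, among them Spry2, which is not shown. Dusp4, Etv4 and Phlda1 had no entry in the promoter table. Chromosome 18, on which Spry4 lies, was left out of the windows of the 10 genes.

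The arrays of an arm resembled each other closely, with a lowest correlation over genes of 0.998, and no 2 arrays held identical values. The siRNAs lowered their targets. Yap1 was at 41.4% of its level in PD-only control (log2 difference -1.27 ± 0.03 SE) and Wwtr1 at 48.7% (-1.04 ± 0.03), so both transcripts were reduced and not removed. The 7 ES cell markers (Pou5f1, Sox2, Nanog, Esrrb, Zfp42, Dppa5a, Tdgf1) had a mean level of 12.98 to 13.06 on the 2i control arrays, 12.62 to 12.66 in PD-only control and 12.82 to 12.87 with siYAP/TAZ. Against PD-only control, 6 of them were called higher in 2i and 4 with siYAP/TAZ. Tdgf1 was called lower in both (-0.10 and -0.11), and Zfp42 and Dppa5a were not called with siYAP/TAZ. Over all genes, 31.3% were called higher and 26.7% lower in 2i, and 35.5% and 26.3% with siYAP/TAZ. The mean levels of markers of other cell types were higher in PD-only control, though not every marker was. The mean of 10 fibroblast markers was 6.15 to 6.30 there, against 4.44 to 4.68 in 2i control and 4.57 to 4.73 with siYAP/TAZ, with 8 and 7 of the 10 called lower than in PD-only control. The mean of 8 primitive endoderm markers was 6.14 to 6.26, against 5.03 to 5.16 and 4.93 to 5.13 (5 and 4 of the 8 called lower). The largest log2 differences from PD-only control were those of Col4a1 (-3.3 in 2i, -3.8 with siYAP/TAZ) and Dab2 (-3.0 and -3.6). Gata4, Sox17 and Sox7 were called in neither comparison. The mean of 8 trophoblast markers was 7.71 to 7.78, against 5.83 to 5.92 and 6.24 to 6.37 (5 and 4 lower, 1 and 2 higher). Krt8 (-6.7 in 2i, -5.8 with siYAP/TAZ) and Krt7 (-4.6 and -4.3) differed most. Cdx2 was higher than in PD-only control in both (0.55 and 1.07), and Tfap2c with siYAP/TAZ (0.71). Elf5 and Hand1 were called in neither comparison. RMA values have no zero, so absence of a marker cannot be read from them. The 3′ minus 5′ difference of the Actb control probe sets, which grows as RNA degrades, averaged 0.717 ± 0.035 (SD over 7 arrays) in PD-only control, against 0.966 ± 0.104 in 2i control and 0.975 ± 0.062 with siYAP/TAZ. The mean of 24 poly-A spike probe sets was 8.43 ± 0.17 in PD-only control, against 8.85 ± 0.15 and 8.33 ± 0.13. On every array of PD-only control the Actb value was below those of both other arms and the 3 means of other cell types were above them, while the poly-A spike mean set 2i control (8.70 to 9.12) above both PD-only arms (8.09 to 8.57 and 8.16 to 8.54), which overlapped. The part of the markers in the results was not tested. In bulk samples, fewer cells of a type and less RNA per cell cannot be told apart.

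Without CHIR the 10 genes did not move as a block. In 2i control 4 of them were higher than in PD-only control (Dusp4, Spred1, Etv4, Etv5) and 4 were lower (Dusp5, Dusp6, Spry1, Phlda1), at an adjusted p of 0.05 by limma over all genes. Spry2 and Spry4 did not pass. Phlda1 and Dusp5 alone among the 10 differed by 2-fold or more, both lower in 2i. For comparison, 58.0% of all genes were called in this contrast (31.3% higher, 26.7% lower), and 5.81% were called at 2-fold or more (1.69% higher, 4.12% lower). The median log2 difference of the 10 genes was 0.12, against 0.04 over all genes. Their median absolute difference was 0.44, against 0.15 over all genes.

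With siYAP/TAZ in PD-only medium, 5 of the genes were higher than in PD-only control (Dusp4, Spry2, Spred1, Etv4, Etv5), 4 were lower (Dusp5, Dusp6, Spry1, Phlda1) and Spry4 did not pass. Phlda1 and Dusp5 were lower by 2-fold or more. Over all genes, 61.8% were called (35.5% higher, 26.3% lower), and 6.37% were called at 2-fold or more (1.90% higher, 4.47% lower). The median difference of the 10 genes was 0.13, against 0.06 over all genes, and their median absolute difference was 0.36, against 0.17. Both comparisons use the same 7 PD-only control arrays, so their values for a gene are not independent of each other.

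**Figure D1:**
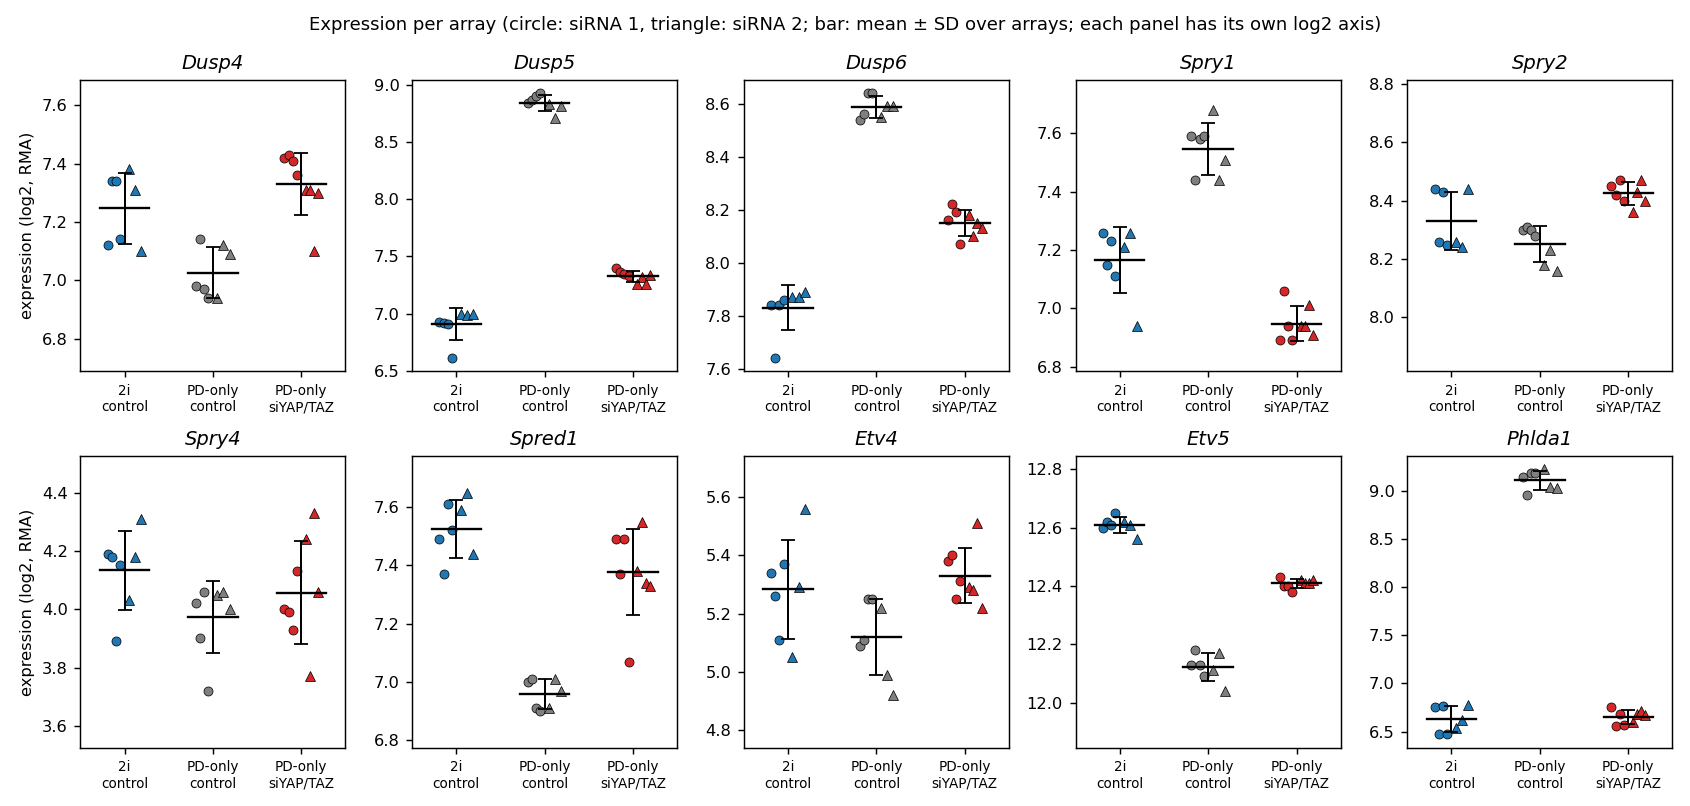
Log2 expression of each of the 10 genes on each array (vertical axis, own scale per panel) in 2i control (7 arrays), PD-only control (7) and PD-only siYAP/TAZ (8), with circles for siRNA 1, triangles for siRNA 2 and bars for the mean ± SD. For Phlda1 the PD-only control arrays lie between 8.95 and 9.22 and all others between 6.47 and 6.78, while the Spry4 arrays of the 3 arms overlap.

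Among the 3 phosphatases of the group, Dusp5, which acts on ERK in the nucleus, differed most. Its level was 6.61, 6.93 and 7.0 (lowest, median and highest array) in 2i control, 8.71, 8.84 and 8.93 in PD-only control, and 7.26, 7.335 and 7.40 with siYAP/TAZ. No array of any arm reached into another arm, so the order was 2i control, then siYAP/TAZ, then PD-only control. The log2 difference from PD-only control was -1.92 ± 0.04 in 2i (SE, adjusted p = 3.34e-19), a level of 26.5%. With siYAP/TAZ it was -1.51 ± 0.04 (adjusted p = 8.11e-18), a level of 35.2%. The difference of siYAP/TAZ from 2i control was 0.41 ± 0.04 (adjusted p = 2.79e-08). The gene lies at chr19:53529145-53541809.

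Dusp6, the cytoplasmic phosphatase of ERK that is widely read as an ERK activity marker, showed the same order of arms with smaller steps. Its level was 7.64, 7.86 and 7.89 in 2i control, 8.54, 8.59 and 8.64 in PD-only control, and 8.07, 8.155 and 8.22 with siYAP/TAZ. Again no arms overlapped. The difference from PD-only control was -0.75 ± 0.03 in 2i (adjusted p = 8.61e-14) and -0.44 ± 0.03 with siYAP/TAZ (adjusted p = 2.93e-10), or 59.5% and 73.9% of the PD-only level. SiYAP/TAZ lay above 2i control by 0.31 ± 0.03 (adjusted p = 7.79e-08). The promoter windows of both genes are printed above.

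Dusp4, a nuclear phosphatase that acts on ERK and on stress kinases, moved the other way. Its level was 7.10, 7.31 and 7.38 in 2i control, 6.94, 6.98 and 7.14 in PD-only control, and 7.10, 7.335 and 7.43 with siYAP/TAZ. The arrays of both other arms reached into the range of PD-only control. It was higher in 2i by 0.22 ± 0.05 (adjusted p = 0.00123) and with siYAP/TAZ by 0.30 ± 0.05 (adjusted p = 2.98e-05). The difference between siYAP/TAZ and 2i control, 0.08 ± 0.05, did not pass (adjusted p = 0.216, 95% confidence interval -0.03 to 0.19). It was 0.16 with siYAP/TAZ#1 alone (adjusted p = 0.0472) and 0.0058 with siYAP/TAZ#2 alone (adjusted p = 0.955), and Dusp4 was not called between the mixes themselves.

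The Sprouty genes, whose proteins restrain receptor tyrosine kinase signalling, went different ways. Spry1 measured 6.94, 7.21 and 7.26 in 2i control, 7.44, 7.58 and 7.68 in PD-only control, and 6.89, 6.94 and 7.06 with siYAP/TAZ. Every PD-only control array was above every array of the other arms, which overlapped each other. Its log2 difference from PD-only control was -0.38 ± 0.05 in 2i (adjusted p = 1.10e-06) and with siYAP/TAZ -0.60 ± 0.05 (adjusted p = 7.87e-10), or 76.6% and 66.0% of the PD-only level. Here siYAP/TAZ gave the lowest mean of the 3 arms, -0.21 ± 0.05 from 2i control (adjusted p = 0.000817). That call was lost with the poly-A spike level as a covariate (-0.22 ± 0.09, adjusted p = 0.0895).

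Spry2 measured 8.24, 8.26 and 8.44 in 2i control, 8.16, 8.28 and 8.31 in PD-only control, and 8.36, 8.425 and 8.47 with siYAP/TAZ. The siYAP/TAZ arrays all lay above those of PD-only control, by 0.18 ± 0.04 on average (adjusted p = 0.000147). The 2i control arrays overlapped both other arms. Their difference from PD-only control, 0.09 ± 0.04, did not pass (adjusted p = 0.0528, interval 0.01 to 0.16). That of siYAP/TAZ from 2i control, 0.10 ± 0.04, passed narrowly (adjusted p = 0.0301). Both depended on single arrays and on the processing. The first passed without siControl#1 array B or D or siControl#2 array A or B in 2i, or siControl#2 array B in PD-only (0.10, adjusted p 0.0232 to 0.0492). With all arrays kept it passed with the mean of both Spry2 probe sets (0.11, adjusted p = 0.0144) and with repeated quantile normalization (0.12, adjusted p = 0.0127). It also passed with dim genes left out (adjusted p = 0.0283) and with a trended, robust variance (adjusted p = 0.0416). The second was lost without the same 4 arrays in 2i or array C of either siYAP/TAZ mix (0.08 to 0.09, adjusted p 0.0554 to 0.0982), and with the mean of both Spry2 probe sets (0.03, adjusted p = 0.542). It was also lost with either control siRNA or either siYAP/TAZ mix alone (adjusted p 0.0516 to 0.135). The same held with only the arrays of the 2 arms (adjusted p = 0.0677) and with the poly-A spike covariate (adjusted p = 0.0666). The rise with siYAP/TAZ over PD-only control kept its call without any single array and lost it with the Actb 3′ minus 5′ difference as a covariate (0.08 ± 0.06, adjusted p = 0.345).

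Spry4 was dim, with a mean below the median over all genes of 6.64, so a change in it may be understated. It measured 3.89, 4.18 and 4.31 in 2i control, 3.72, 4.02 and 4.06 in PD-only control, and 3.77, 4.03 and 4.33 with siYAP/TAZ. All 3 arms overlapped. The difference in 2i was 0.16 ± 0.08 (adjusted p = 0.0916, interval -0.01 to 0.32) and with siYAP/TAZ 0.08 ± 0.07 (adjusted p = 0.394, interval -0.08 to 0.23). The first passed without siControl#1 array C in 2i (0.19, adjusted p = 0.0376) or without siYAP/TAZ#2 array B (0.16, adjusted p = 0.0413), an array that enters only the estimate of the spread.

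Spred1, which brings the RAS inactivator neurofibromin to the membrane, was the member with the largest rise in 2i. It measured 7.37, 7.52 and 7.65 in 2i control, 6.90, 6.97 and 7.01 in PD-only control, and 7.07, 7.375 and 7.55 with siYAP/TAZ. All PD-only control arrays lay below all others. The difference from PD-only control was 0.57 ± 0.06 in 2i (adjusted p = 5.55e-08) and 0.42 ± 0.06 with siYAP/TAZ (adjusted p = 2.29e-06), rises of 1.48-fold and 1.34-fold. The lowest siYAP/TAZ array, array D of siYAP/TAZ#1 at 7.07, stood just above the highest PD-only one at 7.01. The difference of siYAP/TAZ from 2i control was -0.15 ± 0.06 (adjusted p = 0.0364), with overlapping arrays. This call was lost without any one of 9 arrays, namely siControl#1 A, C or D and siControl#2 A or B in 2i, siYAP/TAZ#1 D, and siYAP/TAZ#2 A, C or D (-0.10 to -0.15, adjusted p 0.050 to 0.103), and with either control siRNA or either siYAP/TAZ mix alone (adjusted p 0.0512 to 0.174).

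Of the ETS factors, Etv5, a PEA3-family member, had the smallest standard error of the 10 genes in each comparison. It measured 12.56, 12.61 and 12.65 in 2i control, 12.04, 12.13 and 12.18 in PD-only control, and 12.38, 12.41 and 12.43 with siYAP/TAZ. No arms overlapped, and their order was the reverse of that of Dusp5 and Dusp6. Relative to PD-only control, Etv5 was higher by 0.49 ± 0.02 in 2i (adjusted p = 2.04e-13) and by 0.29 ± 0.02 with siYAP/TAZ (adjusted p = 5.02e-10), rises of 1.40-fold and 1.22-fold. The difference of siYAP/TAZ from 2i control was -0.20 ± 0.02 (adjusted p = 2.32e-07).

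Etv4, from the same family, had a dim probe set and overlapping arms. It measured 5.05, 5.29 and 5.56 in 2i control, 4.92, 5.11 and 5.25 in PD-only control, and 5.22, 5.30 and 5.51 with siYAP/TAZ. Its difference was 0.18 ± 0.07 in 2i (adjusted p = 0.0385) and 0.22 ± 0.07 with siYAP/TAZ (adjusted p = 0.00796). The first call was lost without any one of 9 arrays, namely siControl#1 A, B or D and siControl#2 B or C in 2i, and siControl#1 A or B and siControl#2 B or C in PD-only (0.11 to 0.18, adjusted p 0.0505 to 0.153). With the Actb 3′ minus 5′ difference as a covariate both differences turned negative, at -0.055 ± 0.12 in 2i (adjusted p = 0.753) and -0.015 ± 0.12 with siYAP/TAZ (adjusted p = 0.934). The siYAP/TAZ call was also lost with siControl#1 as the only control (0.16, adjusted p = 0.105) and with the mean of both Etv4 probe sets (0.12, adjusted p = 0.0832), and the 2i call with either control siRNA alone (adjusted p = 0.42 and 0.0546) and with that mean (adjusted p = 0.128). The difference between siYAP/TAZ and 2i control was 0.05 ± 0.07 (adjusted p = 0.638, interval -0.10 to 0.19).

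Phlda1, which encodes a pleckstrin homology-like domain protein induced by growth factors, showed the largest range of arm means of the 10, 2.48. It measured 6.47, 6.62 and 6.78 in 2i control, 8.95, 9.14 and 9.22 in PD-only control, and 6.56, 6.675 and 6.76 with siYAP/TAZ. The PD-only control arrays stood alone at the top and the other arms overlapped. The difference from PD-only control was -2.47 ± 0.06 in 2i (adjusted p = 1.45e-18) and -2.45 ± 0.06 with siYAP/TAZ (adjusted p = 8.24e-19), falls of 5.55-fold and 5.47-fold. SiYAP/TAZ and 2i control differed by 0.02 ± 0.06 (adjusted p = 0.797); the 95% confidence interval ran from -0.10 to 0.14. Phlda1 lies at chr10:111506286-111508649.

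**Figure D2:**
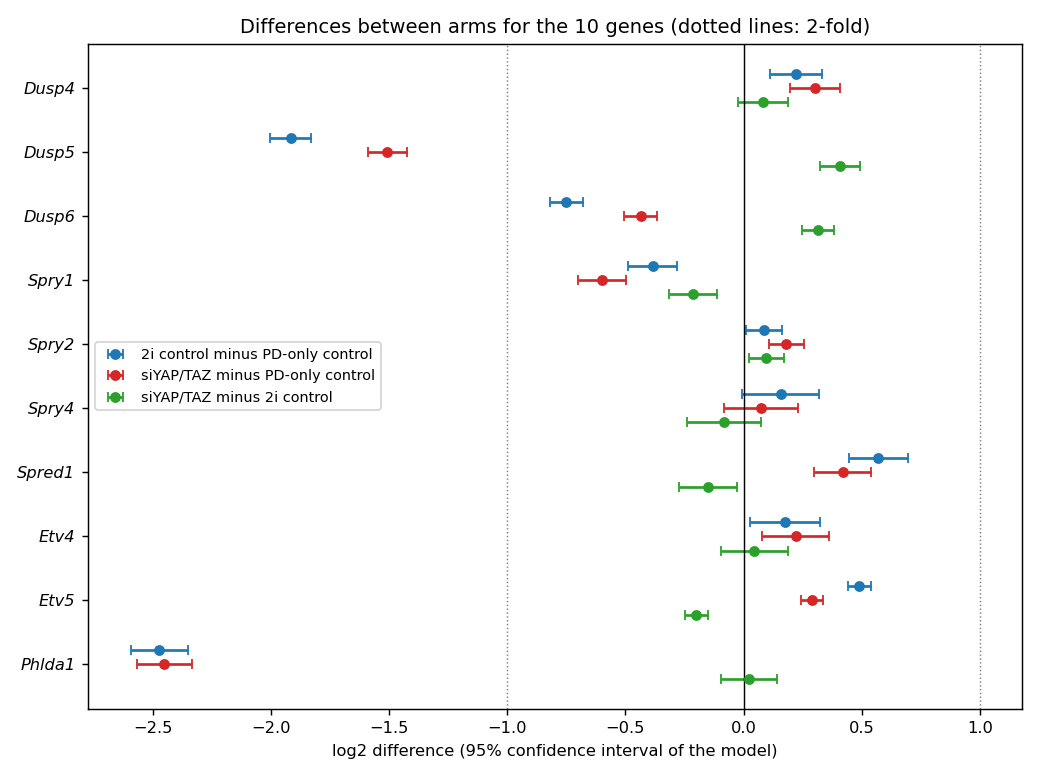
Log2 differences between arms for the 10 genes, with 95% confidence intervals of the limma model, for 2i control minus PD-only control (blue), siYAP/TAZ minus PD-only control (red) and siYAP/TAZ minus 2i control (green). Phlda1 and Dusp5 lie beyond the 2-fold line in both comparisons with PD-only control, and the green points lie between -0.21 (Spry1) and 0.41 (Dusp5).

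Set directly against 2i control, siYAP/TAZ cells were higher in Dusp5, Dusp6 and Spry2 and lower in Spry1, Spred1 and Etv5, and the other 4 genes did not pass. None of the 10 differed by 2-fold here. Over all genes 48.3% were called in this contrast (25.5% higher, 22.8% lower) and 1.51% at 2-fold or more (0.632% higher, 0.879% lower). The median absolute difference of the 10 genes was 0.12, close to the 0.11 over all genes. Arms that did not overlap were seen for 3 of the genes, namely Dusp5, Dusp6 and Etv5, against 28.3% of all genes. Of these, 2 were higher (14.9% of all genes) and 1 was lower (13.3%). In 2i against PD-only control, arms did not overlap for 6 genes (37.6% of all genes), 2 of them higher (18.7%) and 4 lower (19.0%). With siYAP/TAZ against PD-only control this held for 7 genes (40.4%), 3 of them higher (21.1%) and 4 lower (19.3%).

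Several members are measured by more than 1 probe set, and a fit over all probe sets gave each its own test. Spred1 has 8 probe sets. Of these, 7 were higher in 2i and 4 with siYAP/TAZ than in PD-only control, and none was lower. Its second brightest probe set gave 0.62 ± 0.05 in 2i and 0.40 ± 0.05 with siYAP/TAZ, and 4 of the 8 were lower with siYAP/TAZ than in 2i control. All 3 probe sets of Etv5 were higher in both comparisons with PD-only control, by 0.34 to 0.53 in 2i and 0.29 to 0.44 with siYAP/TAZ. Between siYAP/TAZ and 2i control the Etv5 probe sets did not give 1 answer, since the brightest was lower and the others, at -0.10 ± 0.04 (adjusted p = 0.0694) and 0.08 ± 0.04 (adjusted p = 0.0758), did not pass. The other probe set of Spry2 was higher in 2i by 0.14 ± 0.05 (adjusted p = 0.0207) and did not pass with siYAP/TAZ (0.10 ± 0.05, adjusted p = 0.0682), the reverse of the brighter one. None of the 4 Spry4 probe sets passed in any comparison, nor did the second Etv4 probe set. Dusp4, Dusp5, Dusp6, Spry1 and Phlda1 each rest on a single probe set.

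**Figure D3:**
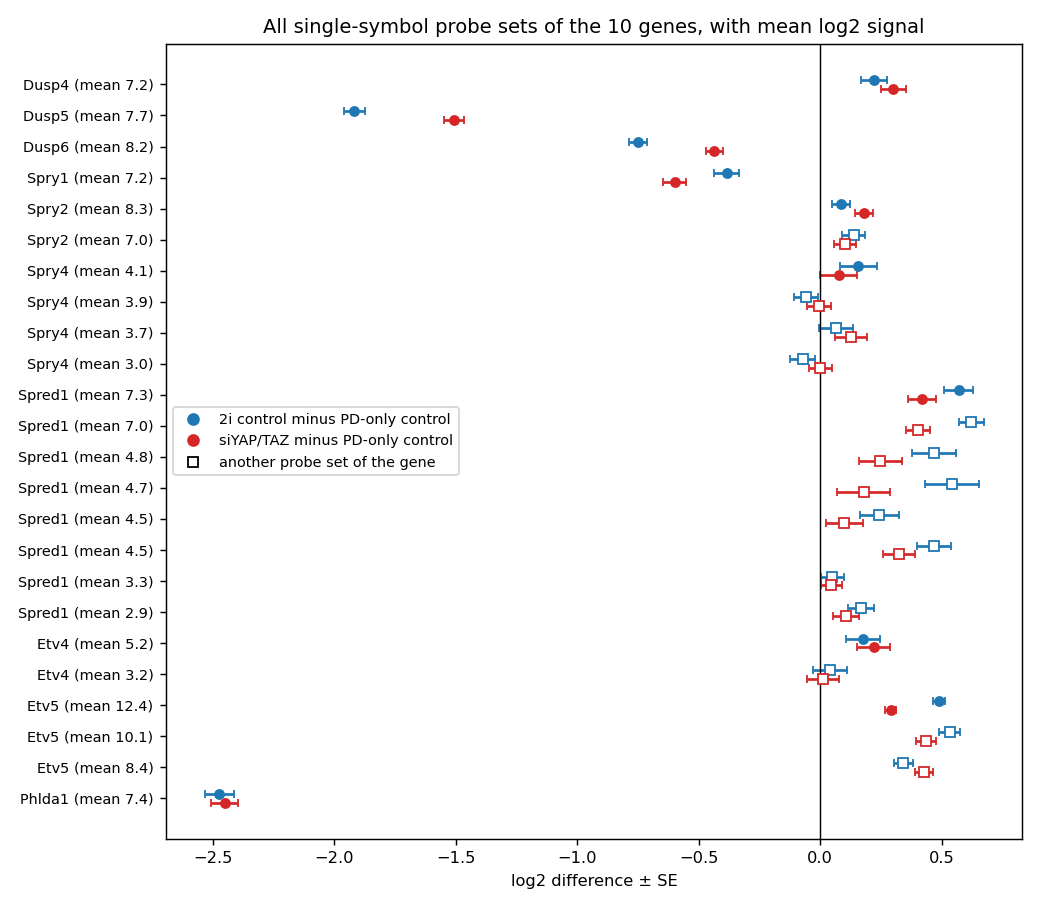
Log2 difference ± SE of each of the 24 probe sets of the 10 genes (rows, with the mean signal), for 2i control (blue) and siYAP/TAZ (red) minus PD-only control, with filled circles for the probe set that stands for its gene and open squares for the others. The Etv5 probe sets all lie to the right of 0 and those of Spry4 lie around it.

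The siRNAs of one kind gave like values. No member was called between the control siRNAs in 2i or in PD-only medium, between the siYAP/TAZ mixes, or for the difference in the 2i effect between the control siRNAs, and no gene of all 18193 was called in these limma contrasts. At an unadjusted p under 0.05, Dusp5 passed between control siRNAs in 2i, as did 1450 genes in all (7.97%). No member passed between control siRNAs in PD-only medium, where 769 genes did (4.23%). Dusp4 passed between the siYAP/TAZ mixes, with 648 genes in all (3.56%). Dusp5 passed for the difference in the 2i effect, with 949 genes in all (5.22%). The largest absolute difference of a member in these contrasts was, in the same order, 0.15, 0.13, 0.15 and 0.25.

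Other genes of the pathway were described from lists chosen by known role. The counts of called genes stand beside the shares over all genes against PD-only control. These were 31.3% higher and 26.7% lower in 2i, and 35.5% higher and 26.3% lower with siYAP/TAZ. Of 24 genes of the cascade from receptor to RSK, 16 were measured. In 2i 3 of them were higher than in PD-only control and 11 lower, with a median of -0.18 against 0.04 over all genes. The largest differences were those of Rps6ka3 (-0.95 ± 0.03), which encodes a kinase downstream of ERK, Braf (-0.87 ± 0.03), Fgfr1 (-0.59 ± 0.04) and Araf (-0.58 ± 0.04). With siYAP/TAZ 6 were higher and 8 lower (median -0.11 against 0.06 over all genes). Rps6ka3 (-1.08 ± 0.03) and Braf (-1.02 ± 0.03) passed 2-fold there, followed by Sos2 (-0.64 ± 0.05) and the scaffold gene Ksr1 (0.48 ± 0.06).

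Of 15 further feedback regulators, 5 were higher and 9 lower in 2i (median -0.39), and 5 were higher and 7 lower with siYAP/TAZ (median -0.10). Dusp9, another phosphatase of ERK, measured 7.33 in 2i control, 9.73 in PD-only control and 8.29 with siYAP/TAZ (means). Its differences from PD-only control were -2.40 ± 0.05 and -1.45 ± 0.05, and it stood higher with siYAP/TAZ than in 2i control by 0.96 ± 0.05. Errfi1, an inhibitor of the EGF receptor, gave -2.10 ± 0.03 in both. Dusp14 gave -1.59 ± 0.04 in 2i and -1.41 ± 0.04 with siYAP/TAZ. Flrt3, a membrane partner of FGF receptors, gave -0.97 ± 0.05 in 2i and -1.24 ± 0.05 with siYAP/TAZ. In the other direction, Il17rd (Sef), an inhibitor of FGF signalling, was higher by 1.75 ± 0.03 in 2i and 1.43 ± 0.03 with siYAP/TAZ. Lrig1, which restrains receptor tyrosine kinases, was higher by 1.00 ± 0.04 in 2i and 0.96 ± 0.04 with siYAP/TAZ. The feedback genes outside the 10 thus also moved in both directions.

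Of 15 measured ETS factors other than Etv4 and Etv5, 6 were higher and 4 lower in 2i (median 0.01), and 7 were higher and 6 lower with siYAP/TAZ (median 0.13). Ets1 had the largest difference in both, -1.86 ± 0.06 and -2.55 ± 0.06. Ets2 gave -0.88 ± 0.03 in 2i and -1.16 ± 0.03 with siYAP/TAZ, and Elf1 -0.65 ± 0.07 and -0.88 ± 0.06. Etv6, a repressor of the family, was higher in 2i by 0.83 ± 0.03 and with siYAP/TAZ by 0.51 ± 0.03. Elk3, a ternary complex factor, differed with siYAP/TAZ by a log2 value of -1.12 ± 0.07 from PD-only control and of -1.13 ± 0.07 from 2i control.

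Of 14 other ERK-responsive genes, 5 were higher and 8 lower in 2i (median -0.33), and 3 were higher and 8 lower with siYAP/TAZ (median -0.18). The membrane protein gene Emp1 gave -3.87 ± 0.06 in 2i and -4.32 ± 0.06 with siYAP/TAZ. For Fos, which encodes a subunit of AP-1, the values were -3.60 ± 0.09 and -3.52 ± 0.09. Plaur, the urokinase receptor, gave -2.95 ± 0.06 and -2.55 ± 0.06, and Ier3, an immediate early gene, -2.80 ± 0.07 and -2.12 ± 0.06. Bhlhe40, a transcriptional repressor, was higher in 2i by 0.26 ± 0.03 and with siYAP/TAZ by 1.11 ± 0.03.

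Between siYAP/TAZ and 2i control the lists held smaller differences, beside a median of 0.015 over all genes. Of all genes, 25.5% were called higher with siYAP/TAZ and 22.8% lower. In the cascade 7 genes were higher with siYAP/TAZ and 4 lower (median 0.03), among them the MEK genes Map2k1 (0.30 ± 0.02) and Map2k2 (0.28 ± 0.03), Fgfr1 (0.23 ± 0.04) and Nras (-0.25 ± 0.03). Of the further feedback regulators 7 were higher and 3 lower (median 0.07). Beside Dusp9 the largest were Dusp1 (0.43 ± 0.03), Dusp10 (0.34 ± 0.06) and Il17rd (-0.32 ± 0.03). Of the other ETS factors 3 were higher and 6 lower (median -0.03), with Ets1 at -0.68 ± 0.06, Etv3 at -0.64 ± 0.05 and Etv6 at -0.32 ± 0.03 after Elk3. Of the other ERK-responsive genes 5 were higher and 4 lower (median 0.08). Epha4, an ephrin receptor, gave -0.86 ± 0.04, while Bhlhe40 (0.85 ± 0.03), Myc (0.75 ± 0.05) and Ier3 (0.68 ± 0.06) were higher. Each difference given for a gene of the lists had an adjusted p under 0.05 in limma.

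**Figure D4:**
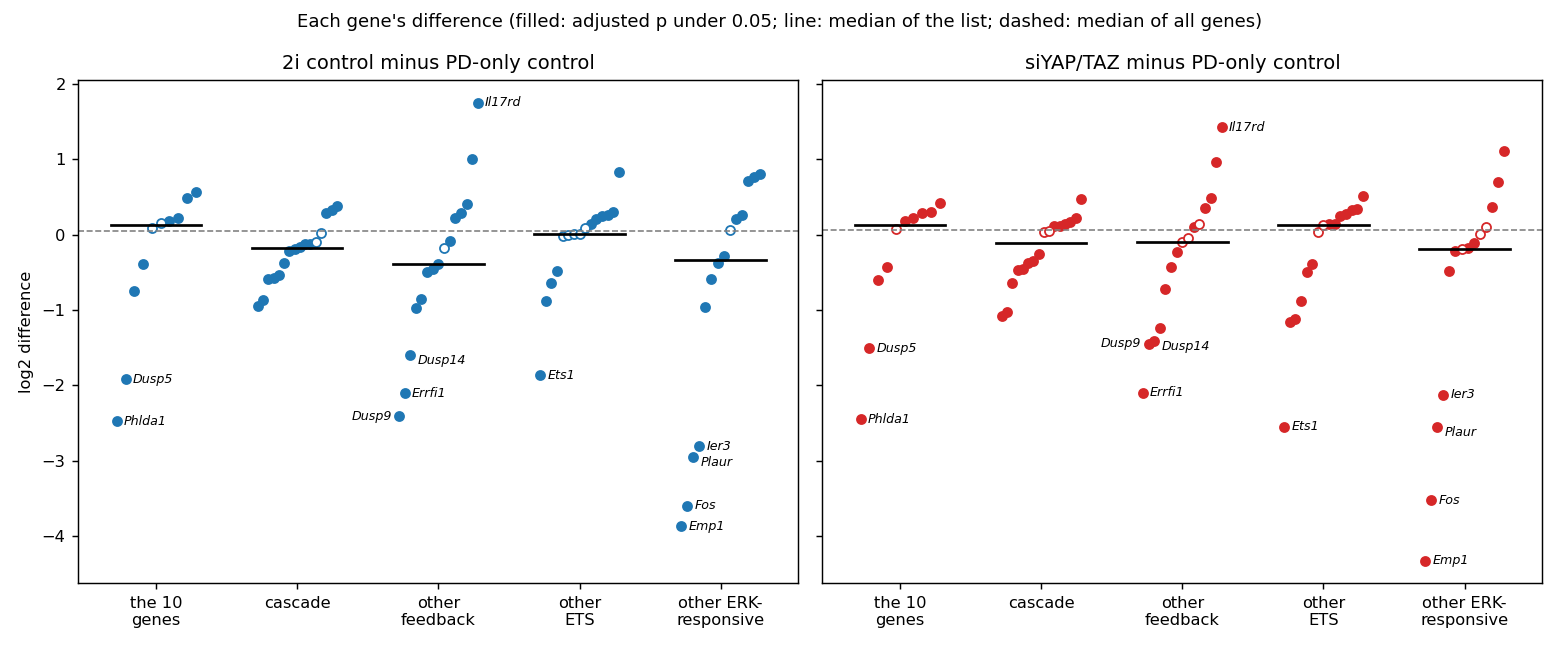
Log2 difference of every measured gene (points, filled where the adjusted p was under 0.05) of the 10 genes and of 4 pathway lists, for 2i control (left) and siYAP/TAZ (right) minus PD-only control, with solid lines for list medians and a dashed line for the median of all genes. Every group holds called genes on both sides of 0, and the lowest point is Emp1 at -3.87 (left) and -4.32 (right).

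The genes with the pattern most like that of the 3 widest-ranging members were found by Pearson correlation over the 22 arrays, which fall into 3 arms, so the values mostly describe arm means. Closest to Phlda1 were Pmp22 (r = 0.997), Amot (0.997) and Actc1 (0.996). Pmp22 measured 5.52 in 2i control, 11.25 in PD-only control and 5.72 with siYAP/TAZ (means), with Phlda1 at 6.63, 9.11 and 6.65. Closest to Dusp5 were Tmem88 (0.996), Mael (0.995) and Esrp1 (0.995). Tmem88 measured 7.64, 10.02 and 8.13 in the same arms, with siYAP/TAZ between the others, as for Dusp5 at 6.91, 8.84 and 7.33. Closest to Dusp6 were Dusp9 (0.989), Vamp7 (0.987) and Dsp (0.985). Dusp6 had arm means of 7.83, 8.59 and 8.15.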

How the data were processed

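Total RNA was hybridised to 1-colour Affymetrix mouse arrays, 1 sample each. The deposited log2 values were made by the authors with RMA, per the submitters' processing notes; its version is not given in the sources used here. RMA aligns the distributions of the arrays, gives no detection call and compresses differences of dim genes. Of 45101 probe sets, 34945 had 1 symbol, 932 several, and 64 controls were left out. For each of 18193 genes the probe set of highest mean was used. A model with 1 mean for each of 6 groups of medium and siRNA was fitted to all arrays with limma 3.58.1 in R 4.3.3 (16 residual degrees of freedom), arms being averages of their siRNA groups with equal weight. Adjusted p-values are Benjamini-Hochberg over all genes. Errors of differences are standard errors, those of arm means SDs. The test was tried on simulated arrays with independent noise, where 200 of 18193 genes were changed by a log2 value of 0.5 or 1. It recovered 96% to 100% of them with 4 to 13 false calls. Smaller differences, and a share of changed genes as large as that called here, were not simulated. Named are all 10 members, Yap1 and Wwtr1, from each list up to 4 called genes with the largest difference per comparison and any beyond 2-fold, and the 3 genes most correlated with each of the 3 members of widest range, among genes at or above the median level. Members and lists were chosen with earlier results of these data known. Alternatives covered probe sets, normalization, variance model, weights, arrays and siRNAs in the fit, blocks (statmod 1.5.0), covariates and a stricter threshold. Promoters and positions are RefSeq's (GRCm38.p6). Figures were drawn with matplotlib 3.10.9 in Python 3.11.15.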

Additional observations from a re-analysis of the deposited data

Results flagged for a closer look

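In the groups of 4 arrays, 5 values of 40 groups tested stood apart from their 3 neighbours by Dixon's test, where chance gives about 1 in 20. Dusp4 measured 7.10 on array C of siYAP/TAZ#2, against 7.30 to 7.31 on the others of its group. Dusp5 measured 6.61 on array D of siControl#1 in 2i, against 6.91 to 6.93. Dusp6 measured 7.64 on array B of siControl#1 in 2i, against 7.84 to 7.86. Spry1 measured 7.44 on array B of siControl#1 in PD-only medium, against 7.58 to 7.59. Spry4 measured 3.89 on array C of siControl#1 in 2i, against 4.15 to 4.19. These values lie on 5 different arrays, and the differences of Dusp4, Dusp5, Dusp6 and Spry1 from PD-only control kept their call and direction without them.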

How the results depend on the processing

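Dusp4, Dusp5, Dusp6, Spry1, Spred1, Etv5 and Phlda1 kept direction and call against PD-only control, and Spry2, Spry4 and Etv4 did not. There were 37 alternatives for 2i and 39 for siYAP/TAZ, 22 of each leaving out 1 array. Not all of them could move a difference. An array of the arm outside a comparison enters only the estimate of the spread. Swaps of probe sets leave the values of a gene with 1 probe set unchanged. Leaving out 1 array gave 7 to 9 called members for 2i, 9 for siYAP/TAZ (all 22 arrays) and 4 to 6 for siYAP/TAZ against 2i control. The share of all genes called was then 55.6% to 58.1%, 59.2% to 62.6% and 46.8% to 48.4%. The other alternatives gave 7 to 9, 7 to 9 and 3 to 6. Apart from the fit with dim genes left out, 42.9% to 61.2%, 45.1% to 65.1% and 30.8% to 50.8% of the genes tested were called. The fit with dim genes left out kept only brighter genes, 8 of the members among them. It called 8, 8 and 6 members, with 82.1%, 84.6% and 76.3% of the genes kept. The count of 3, for siYAP/TAZ against 2i control, came with the poly-A spike level as a covariate, against 6 without it. The share of all genes called fell with it too, from 48.3% to 30.8%. The cause was not tested. Etv4 reversed with the Actb 3′ minus 5′ covariate, to -0.055 in 2i and -0.015 with siYAP/TAZ (adjusted p 0.753 and 0.934); the cause was not tested. Replicate letters did not pair the arrays, as 2 of 51 same-letter pairs of groups deviated together with a correlation over 0.1 and 4 of 150 pairs of different letter did. The replicate block gave 8, 9 and 5 called members, with 57.9%, 61.9% and 47.9% of all genes called. For 2i it lost Etv4 (adjusted p = 0.0571) and gained Spry2 (0.0439), and for siYAP/TAZ against 2i control it lost Spred1 (0.0574). The number of arrays limits the precision, and dim probe sets (Spry4, Etv4) bound little.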

Other observations

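The 2i control arrays fell apart for Spry2, with 3 arrays at 8.43 to 8.44 (siControl#1 A and C, siControl#2 C) and 4 at 8.24 to 8.26. The same 3 arrays had the highest Phlda1 values of that arm, 6.75 to 6.78, against 6.47 to 6.62 on the other 4. This was seen after the values were examined and was not tested.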
